A study of Mus musculus with 5 samples.

Results

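Transcripts of 10 B-lymphoid genes were examined in sorted myeloid progenitors of mice with and without a Bcor deletion. The genes are Dntt, Ebf1, Pax5, Vpreb1, Vpreb3, Igll1, Cd79a, Cd79b, Ighm and Igkc, and they were found by symbol among the 52550 genes of the counts table. The cells were Lin-cKit+Sca1- (KL) bone marrow cells, a gate that holds the committed myeloid progenitors, taken 20 weeks after tamoxifen. Per the labels all mice carried scl-Cre-ERT, a tamoxifen-inducible Cre recombinase driven by a stem cell enhancer of the Scl gene, and were given 1 mg tamoxifen per day for 5 days at an age of 3 to 6 months. Per the labels, the 3 BcorΔE9-10 libraries came from mice that were scl-Cre-ERT +; Bcorfl/y and lost exons 9 and 10 of the X-linked Bcor gene, and the 2 BcorWT libraries from mice that were scl-Cre-ERT +; Bcorwt/y. The results section of the study names littermates with either the flox allele or the Cre alone as controls, and the labels were followed here. The lineage antibodies used before the sort included B220, CD5, CD11b and Gr-1, so cells with these B-lymphoid, T-lymphoid and mature myeloid surface proteins were to be removed.

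B cells form in the bone marrow through ordered steps. Terminal deoxynucleotidyl transferase, the product of Dntt, adds bases at the joints of rearranging antigen receptor genes in early lymphoid cells. The transcription factors Ebf1 and Pax5 set up and hold B-lineage identity. Vpreb1 and Igll1 encode parts of the surrogate light chain, which pairs with the first heavy chain before a light chain exists. Vpreb3 is grouped with them here under that name. Cd79a and Cd79b carry the signal of the pre-B and B cell receptor, and Ighm and Igkc encode the constant regions of the μ heavy chain and the κ light chain.

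All 10 genes had counts, at low levels, and none passed the test of the genotypes. Of the 9 genes with enough counts to test, 0 passed an adjusted p of 0.05 with limma, 0 with edgeR and 0 with DESeq2, where limma called 10.1% of all 11766 genes tested (6.02% higher and 4.09% lower in BcorΔE9-10). Pax5 and Dntt had an unadjusted limma p under 0.05, 2 of 9 genes, which compares with 25.3% of all genes tested. Pax5 was the one gene of the 10 whose level in every BcorΔE9-10 library lay above both BcorWT libraries, 11.1% of those tested, and the same held for 22.5% of all genes tested. It passed the filter on low counts through BcorΔE9-10 libraries alone.

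The libraries held between 5998924 and 8303999 counts. The sorted cells had the transcripts of myeloid progenitors, with Mpo, the granule enzyme myeloperoxidase, at 4928 ± 621.1 CPM (counts per 1000000 of the scaled library total; SD, n = 3) in BcorΔE9-10 and 5229 ± 79.0 CPM (SD, n = 2) in BcorWT. Bcor itself had 196, 168 and 185 counts in BcorΔE9-10 libraries 1 to 3 and 83 and 109 in BcorWT libraries 1 and 2. Limma called it higher in BcorΔE9-10 (adjusted p = 0.0313, log2 fold change 0.78, SE 0.218). Since the assay counts transcript ends and not exons 9 and 10, this does not check the genotypes. Kit, the receptor that defines the gate, had 452, 307 and 423 counts against 128 and 132 (limma adjusted p = 9.82e-05, log2 fold change 1.43, SE 0.173). A list of 10 neutrophil genes took 16.1 to 17.7% of all counts in the BcorΔE9-10 libraries and 20.6 to 21.2% in the BcorWT libraries. The part of these differences in the B-lymphoid values was not tested. In sorted bulk RNA, fewer cells of a type and less RNA per cell cannot be told apart.

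The genes grouped as surrogate light chain had the same pair of high libraries, BcorΔE9-10 libraries 2 and 3, and their upstream sequences are shown together. Ebf1 had the same pair of high libraries, and its 2 upstream sequences held no match to the letters searched. The sequences are the 250 bases before the RefSeq transcript start on GRCm38.p6, given 5′ to 3′ on the strand of the gene. Capitals mark matches to the E-box letters CAGNTG or, on the other strand, CANCTG, the kind of site that E proteins such as Tcf3 read. Igll1 lies at chr16:16863986-16864235 (minus strand), Vpreb1 at chr16:16869256-16869505 (minus strand) and Vpreb3 at chr10:75948050-75948299 (plus strand). The intervals of Vpreb1 and Vpreb3 fall inside the wider gene limits of the counts table.
Igll1: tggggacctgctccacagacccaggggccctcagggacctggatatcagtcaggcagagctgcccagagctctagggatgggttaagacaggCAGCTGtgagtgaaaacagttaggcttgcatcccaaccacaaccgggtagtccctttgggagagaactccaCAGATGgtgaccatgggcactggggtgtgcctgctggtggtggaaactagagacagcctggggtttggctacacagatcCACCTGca
Vpreb1: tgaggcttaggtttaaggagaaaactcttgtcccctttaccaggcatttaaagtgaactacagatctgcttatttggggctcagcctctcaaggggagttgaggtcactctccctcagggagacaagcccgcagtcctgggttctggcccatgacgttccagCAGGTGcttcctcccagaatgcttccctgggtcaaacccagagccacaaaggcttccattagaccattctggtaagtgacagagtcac
Vpreb3: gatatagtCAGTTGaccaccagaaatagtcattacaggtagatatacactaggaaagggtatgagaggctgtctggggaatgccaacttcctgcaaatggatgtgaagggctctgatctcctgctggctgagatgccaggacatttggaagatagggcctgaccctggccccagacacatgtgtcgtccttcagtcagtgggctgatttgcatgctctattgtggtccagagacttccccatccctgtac
Igll1 held 3 matches, with first bases at -158, -87 and -8 counted from the transcript start. Vpreb1 held 1 match at -88 and Vpreb3 held 1 match at -242. Of the 8 upstream sequences found for 7 of the 10 genes, 4 held a match, and 44.8% of all 32851 promoters searched held one. A match is a run of letters and was not tested as a binding site.

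Dntt (ENSMUSG00000025014; mm10, chromosome 19, 41029275 to 41059523, plus strand), the earliest of the 10 genes in lymphoid development, had 54, 67 and 45 counts in BcorΔE9-10 libraries 1 to 3 and 42 and 6 in BcorWT libraries 1 and 2. BcorWT library 2 stood apart, while BcorWT library 1, at 5.95 CPM, lay within the BcorΔE9-10 range of 5.25 to 10.9 CPM. The means were 7.51 ± 3.00 CPM (SD, n = 3) for BcorΔE9-10 and 3.42 ± 3.58 CPM (SD, n = 2) for BcorWT, and the log2 fold change was 1.5 (SE 0.603, 95% interval 0.22 to 2.77, unadjusted p = 0.0241, limma adjusted p = 0.129). It was smaller with edgeR, at 1.10 (adjusted p = 0.206), and with DESeq2, at 1.11 (adjusted p = 0.234). The limma value depended on both BcorWT libraries, since the log2 fold change was 0.20 without BcorWT library 2 and 2.85 without BcorWT library 1. In those fits the single BcorWT library left was assumed to vary like the other libraries.

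Pax5 (ENSMUSG00000014030; mm10, chromosome 4, 44524757 to 44710487, minus strand) had 15, 11 and 15 counts in BcorΔE9-10 libraries 1 to 3 and 4 and 1 in BcorWT libraries 1 and 2. The 3 BcorΔE9-10 libraries lay between 1.75 and 1.79 CPM, all above the BcorWT libraries at 0.567 and 0.148 CPM. Pax5 passed the filter on low counts through BcorΔE9-10 libraries alone, so this separation and the values below are no measure of direction. The log2 fold change was 2.27 (SE 0.916, 95% interval 0.33 to 4.21, unadjusted p = 0.0243, limma adjusted p = 0.130), and edgeR gave an adjusted p of 0.0855 and DESeq2 0.145. Over the alternatives tried, the adjusted p of Pax5 ranged from 0.0855 to 0.373 and its log2 fold change from 1.52 to 3.04. The last 300 bases of the Pax5 transcript had a GC content of 30.3%, the lowest of the 10 genes, and with a GC trend removed from each library the log2 fold change was 2.01 (limma adjusted p = 0.189).

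Ebf1 (ENSMUSG00000057098; mm10, chromosome 11, 44617317 to 45008091, plus strand), the factor that acts ahead of Pax5, had 5, 14 and 17 counts in BcorΔE9-10 libraries 1 to 3 and 5 and 1 in BcorWT libraries 1 and 2. The groups overlapped, because BcorΔE9-10 library 1, at 0.590 CPM, lay below BcorWT library 1 at 0.709 CPM. The log2 fold change was 1.74 (SE 1.04, 95% interval -0.46 to 3.94, limma adjusted p = 0.315), with 0.85 without BcorWT library 2 and 2.65 without BcorWT library 1. Ebf1 and Pax5 together had 20, 25 and 32 counts against 9 and 2, or 3.39 ± 0.906 CPM against 0.786 ± 0.693 CPM. Both genes passed the filter on low counts through BcorΔE9-10 libraries alone and were chosen with results of these data known. No test was made on this sum.

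**Figure D1:**
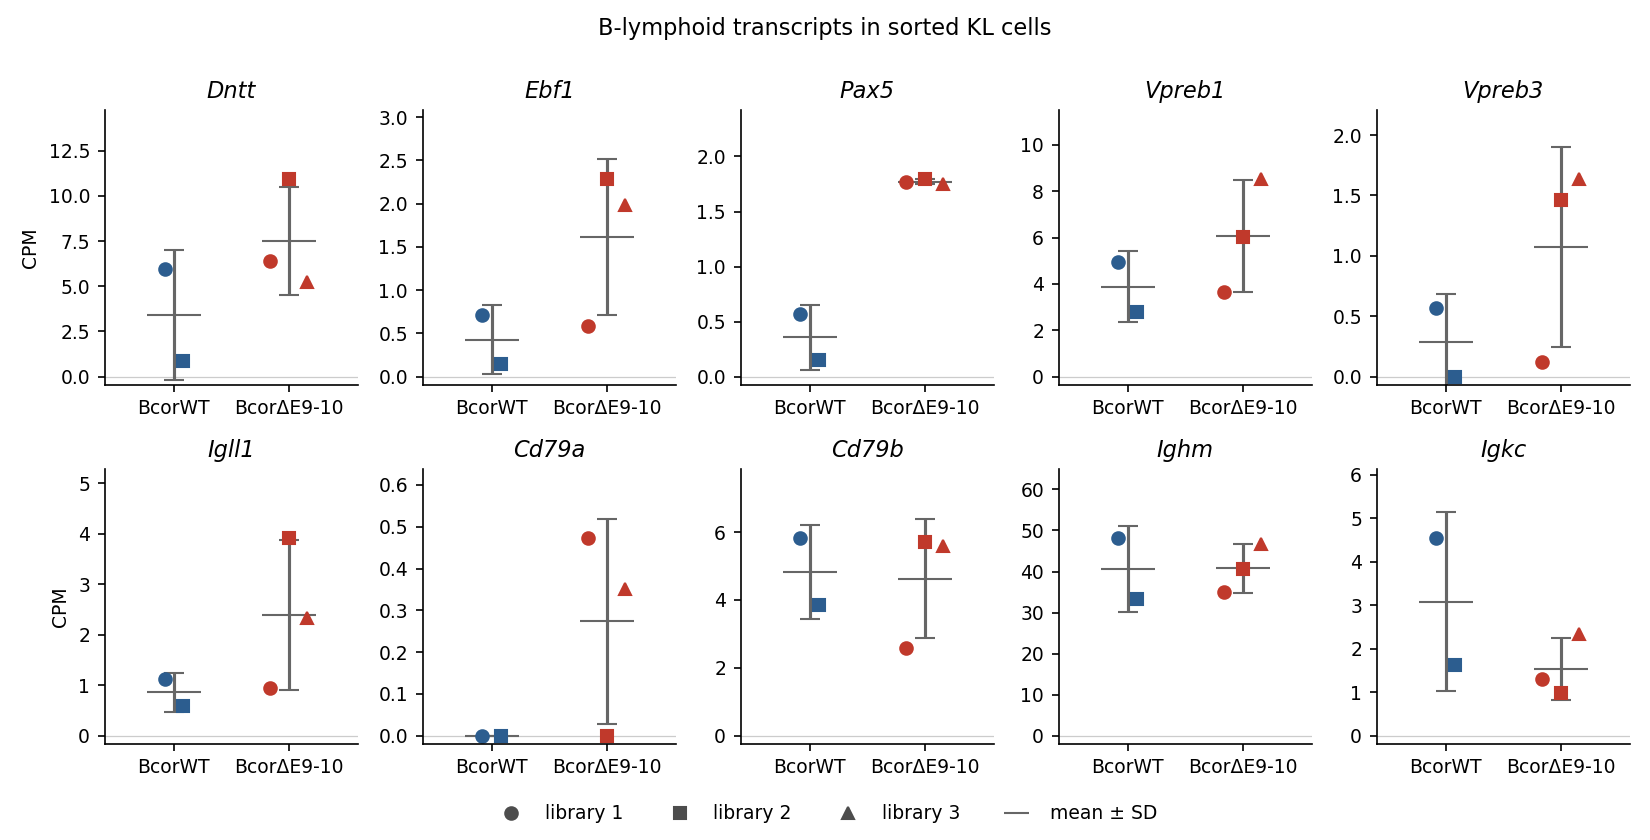
Level of each of the 10 B-lymphoid genes in CPM (linear axis, one scale per gene) in the 2 BcorWT libraries (blue) and the 3 BcorΔE9-10 libraries (red), with the mean and SD of each group as a bar. Pax5 is the one gene whose groups do not touch, at 1.75 to 1.79 against 0.148 to 0.567 CPM, and BcorWT library 2 is the lowest of the 5 for 7 genes. Of these 7, Vpreb3, Igll1, Ebf1 and Pax5 passed the filter on low counts through BcorΔE9-10 libraries alone.

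Vpreb1 (ENSMUSG00000059305; mm10, chromosome 16, 16868402 to 16870843, minus strand), the variable-like part of the surrogate light chain, had 31, 37 and 73 counts in BcorΔE9-10 libraries 1 to 3 and 35 and 19 in BcorWT libraries 1 and 2. The groups overlapped, with BcorΔE9-10 library 1 at 3.66 CPM below BcorWT library 1 at 4.96 CPM. Its log2 fold change was 0.59 (SE 0.442, 95% interval -0.34 to 1.53, limma adjusted p = 0.429), with 0.20 without BcorWT library 2, 0.25 without BcorΔE9-10 library 3, 0.95 without BcorΔE9-10 library 1 and 1.00 without BcorWT library 1. Vpreb1 shares 108 of its 1113 exon bases with Top3b (122 to 255 counts per library) on the opposite strand. The strand setting of the counting was not given in the sources used here. The overlap may therefore have added or removed counts of Vpreb1. A share of 27.3% of the 30-base words in the last 300 bases of Vpreb1 also occur in its near copy Vpreb2, which was listed at 0 in all 5 libraries.

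Igll1 (ENSMUSG00000075370; mm10, chromosome 16, 16860671 to 16863985, minus strand), the constant-like part, had 8, 24 and 20 counts in BcorΔE9-10 libraries 1 to 3 and 8 and 4 in BcorWT libraries 1 and 2. Vpreb3 (ENSMUSG00000000903; mm10, chromosome 10, 75943057 to 75949657, plus strand) had 1, 9 and 14 counts against 4 and 0. In both genes BcorΔE9-10 libraries 2 and 3 were high and library 1 lay below BcorWT library 1. The log2 fold changes were 1.15 (SE 0.802, limma adjusted p = 0.392) for Igll1 and 1.75 (SE 1.42, limma adjusted p = 0.469) for Vpreb3. Both genes passed the filter on low counts through BcorΔE9-10 libraries alone. Leaving out 1 library moved Igll1 between 0.73 (without BcorWT library 2) and 1.72 (without BcorΔE9-10 library 1) and Vpreb3 between 0.20 (without BcorWT library 2) and 3.30 (without BcorWT library 1).

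The 3 surrogate light chain genes summed to 40, 70 and 107 counts in BcorΔE9-10 and to 47 and 23 in BcorWT. Per 1000000 counts of the unscaled library this was 4.82 (95% Wilson interval 3.54 to 6.56), 11.7 (9.24 to 14.7) and 13.5 (11.1 to 16.3) against 6.20 (4.66 to 8.25) and 3.24 (2.16 to 4.87). These intervals cover counting error only, since molecules were not counted. The intervals of BcorΔE9-10 libraries 2 and 3 lay above that of library 1, whose interval overlapped those of both BcorWT libraries. Replicates differed by more than counting error over genes in general, so this order describes these libraries.

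**Figure D2:**
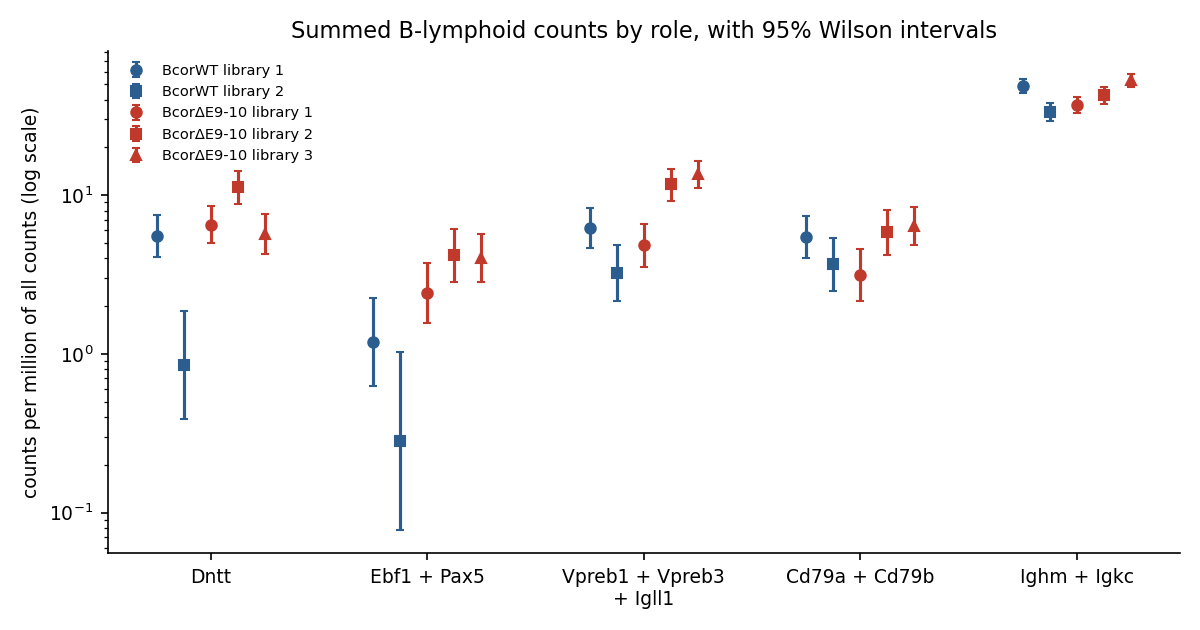
Summed counts per 1000000 counts of the unscaled library (log axis) for the genes of each role in each library, with 95% Wilson intervals for counting error. BcorΔE9-10 libraries 2 and 3 stand above the rest for the surrogate light chain (11.7 and 13.5), and BcorWT library 2 stands below the rest for Dntt (0.846).

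Cd79b (ENSMUSG00000040592; mm10, chromosome 11, 106311341 to 106314762, minus strand), the β chain of the receptor signalling unit, had 22, 35 and 48 counts in BcorΔE9-10 libraries 1 to 3 and 41 and 26 in BcorWT libraries 1 and 2. The mean levels were 4.63 ± 1.76 CPM (SD, n = 3) and 4.83 ± 1.39 CPM (SD, n = 2). The log2 fold change of -0.16 (SE 0.412, 95% interval -1.03 to 0.71, limma adjusted p = 0.852) turned positive without BcorΔE9-10 library 1 (0.24) or without BcorWT library 1 (0.14).

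Cd79a (ENSMUSG00000003379; mm10, chromosome 7, 24897381 to 24902197, plus strand), its α chain partner, had 4, 0 and 3 counts in BcorΔE9-10 libraries 1 to 3 and 0 and 0 in BcorWT libraries 1 and 2. It was below the filter on low counts and was not tested. BcorΔE9-10 library 2 was at 0 like both BcorWT libraries, and without the filter the limma adjusted p was 0.348. These counts lie near the limit of 3 that a count of 0 allows.

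Ighm (ENSMUSG00000076617; mm10, chromosome 12, 113418558 to 113422730, minus strand) had the most counts of the 10 genes, with 296, 249 and 401 in BcorΔE9-10 libraries 1 to 3 and 339 and 225 in BcorWT. The groups overlapped fully, at 40.8 ± 5.93 CPM (SD, n = 3) and 40.7 ± 10.4 CPM (SD, n = 2). Its log2 fold change was 0.01 (SE 0.182, 95% interval -0.37 to 0.40, limma adjusted p = 0.973), with a sign that turned to -0.0029 under DESeq2 size factors and to -0.12 with a replicate block. Of the 9 tested genes Ighm had the narrowest interval.

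Igkc (ENSMUSG00000076609; mm10, chromosome 6, 70726435 to 70726966, plus strand) had 11, 6 and 20 counts in BcorΔE9-10 libraries 1 to 3 and 32 and 11 in BcorWT libraries 1 and 2. BcorWT library 1 was the highest, at 4.54 CPM, and BcorWT library 2, at 1.63 CPM, lay within the BcorΔE9-10 range of 0.977 to 2.33 CPM. Its log2 fold change was -0.86 (SE 0.590, 95% interval -2.11 to 0.39, limma adjusted p = 0.384), which became -0.13 without BcorWT library 1 and -1.56 without BcorWT library 2. The ratio of Igkc to Ighm counts was 0.0372, 0.0241 and 0.0499 in BcorΔE9-10 and 0.0944 and 0.0489 in BcorWT, so Ighm counts exceeded Igkc counts in all 5 libraries.

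**Figure D3:**
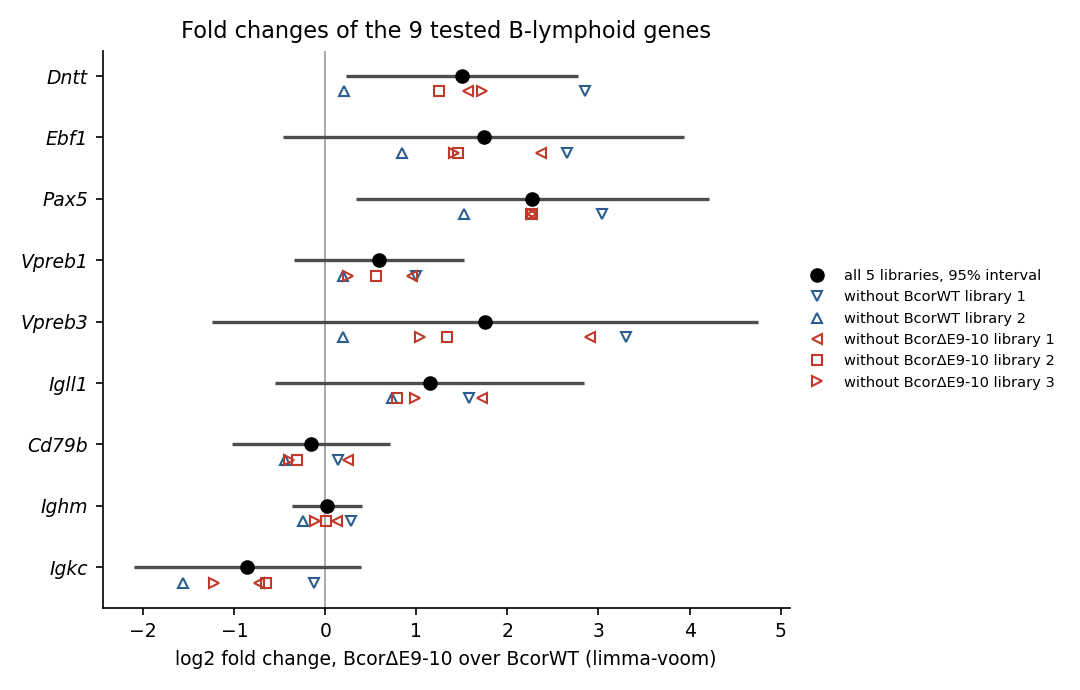
Log2 fold change of BcorΔE9-10 over BcorWT for the 9 tested genes with the 95% limma interval (black), and the same value with each library left out (open symbols, no interval). The intervals of Pax5 (0.33 to 4.21) and Dntt (0.22 to 2.77) lie above 0 before adjustment, and leaving out BcorWT library 1 or 2 moves most genes further than leaving out a BcorΔE9-10 library. Vpreb3, Igll1, Ebf1 and Pax5 passed the filter on low counts through BcorΔE9-10 libraries alone.

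The fold changes need to be read with the filter in mind. A gene was tested when at least 2 libraries reached about 1.32 counts per 1000000, and Vpreb3, Igll1, Ebf1 and Pax5 reached it in BcorΔE9-10 libraries alone. Those 4 of the 9 tested genes could hardly have fallen below BcorWT and still been tested, so the 7 positive and 2 negative values are no measure of direction. Cd79b, Vpreb1 and Ighm had at least 10 counts in every library, and none of the 3 had an interval that left out 0.

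**Figure D4:**
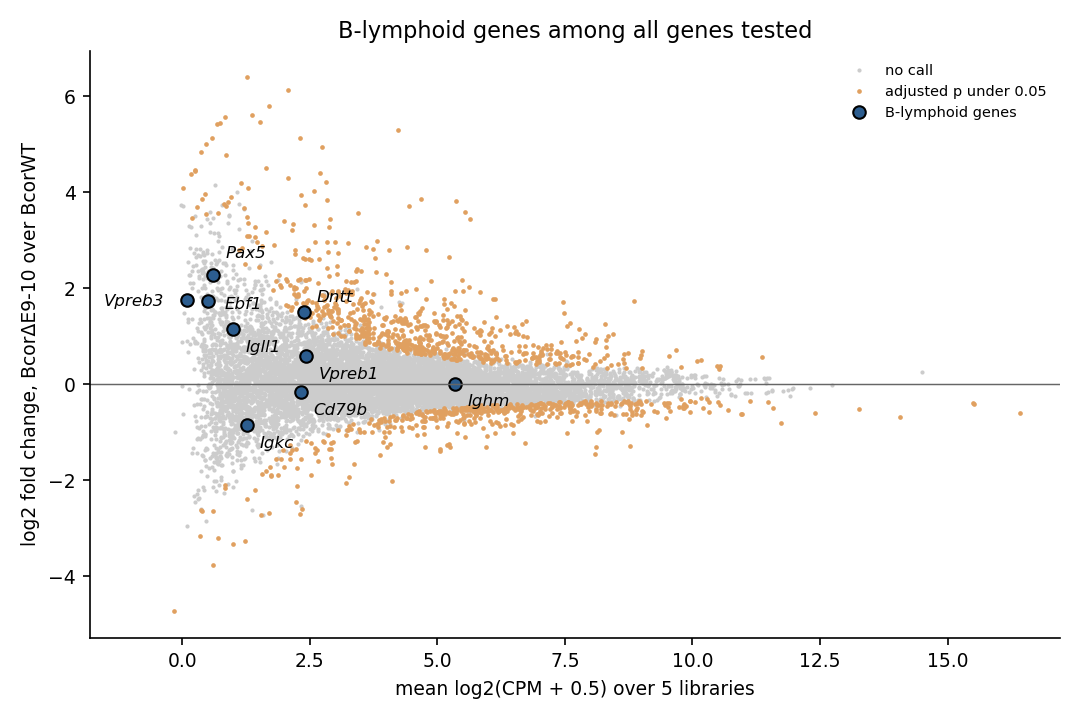
Log2 fold change against the mean level over 5 libraries, as log2(CPM + 0.5), for all 11766 genes tested (grey, no call; orange, adjusted p under 0.05) with the 9 tested B-lymphoid genes in blue. None of the 9 blue points was called, with Ighm near 0 and Pax5 at 2.27.

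Summed over the 10 genes, the libraries held 447, 452 and 656 counts in BcorΔE9-10 and 510 and 293 in BcorWT, which is 67.6 ± 13.0 CPM (SD, n = 3) against 57.8 ± 20.5 CPM (SD, n = 2). Ighm took 55.1 to 66.2% of these counts in BcorΔE9-10 and 66.5 and 76.8% in BcorWT. Without Ighm and Igkc the sums were 16.5, 32.1 and 27.4 CPM against 19.7 and 8.43 CPM, and BcorΔE9-10 library 1 lay between the 2 BcorWT libraries. No test was made on these sums, because the 10 genes were chosen with results of these data known.

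Libraries of the same genotype differed among themselves. BcorWT library 2 had the lowest level of the 5 libraries for 7 of the 9 tested genes, where 19.0% of all genes tested were lowest in it. Of these 7, Vpreb3, Igll1, Ebf1 and Pax5 passed the filter on low counts through BcorΔE9-10 libraries alone. A BcorWT library was more likely to be lowest for them, so the shares are not like for like. BcorWT library 1 exceeded library 2 for 9 of the 10 genes, by 1.44-fold for Ighm and 6.71-fold for Dntt, where 47.6% of all genes tested were higher in library 1. BcorΔE9-10 library 1 was below both other BcorΔE9-10 libraries for 6 of the 10 genes, where this held for 31.3% of all genes tested.

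Transcripts of natural killer and T cells are given beside these values. Of 10 natural killer cell genes, 7 were lowest in BcorWT library 2, and the list without Nkg7 summed to 18.3, 23.0 and 27.1 CPM in BcorΔE9-10 and to 16.4 and 7.25 CPM in BcorWT. Nkg7, the most abundant gene of that list, was set aside after its values were seen, and with it the sums were 144.6 to 183.2 CPM and 190.5 to 198.7 CPM. The 18 T cell genes summed to 15.6, 15.2 and 19.7 CPM in BcorΔE9-10 and to 16.0 and 7.99 CPM in BcorWT, and 5 of the 18 were lowest in BcorWT library 2, while Cd2 was highest there. Of the receptor complex genes, Trbc1 had 16, 5 and 16 counts in BcorΔE9-10 and 14 and 9 in BcorWT, Trbc2 had 8, 5 and 15 against 3 and 3, and Cd3g had 0, 0 and 2 against 0 and 0. Cd3e had 2, 0 and 3 counts in BcorΔE9-10 and 0 and 0 in BcorWT, and Cd3d had 9, 11 and 19 against 26 and 10 (log2 fold change -0.55, limma adjusted p = 0.595). Cd247 had 6, 5 and 2 counts against 10 and 3, Trac 0, 1 and 8 against 9 and 0, and Trdc 0, 0 and 5 against 7 and 0. Limma called none of the 8 natural killer cell and 6 T cell genes tested. An unadjusted limma p under 0.05 was found for 4 of the 8 natural killer cell genes and 1 of the 6 T cell genes, against 25.3% of all genes tested. The median log2 fold changes were 1.02 and 0.65, with 6 of 8 and 4 of 6 positive. Lck, a kinase of T cells and early lymphoid cells, had 35, 28 and 31 counts against 11 and 4 (log2 fold change 1.97, limma adjusted p = 0.0568), and edgeR (adjusted p = 0.0342) and DESeq2 (0.0338) called it higher in BcorΔE9-10. The lineage antibodies named above would remove B220+ and CD5+ cells, and the part of other lymphoid cells in the values of the 10 B-lymphoid genes was not tested.

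Most listed genes of mature B cells were at or near 0. Of 15 such genes 11 had fewer than 10 counts in every library, and Ms4a1 (CD20), Fcer2a, Cr2 and Cxcr5 had 0 counts in all 5 libraries, where 3 counts correspond to 0.350 to 0.489 CPM. Cd22, an inhibitory receptor of B cells, had 0, 5 and 0 counts in BcorΔE9-10 and 0 and 1 in BcorWT. The 4 genes of the list that could be tested, Cd37, H2-Ab1, H2-Aa and Cd74, are also expressed by other blood cells, and limma, edgeR and DESeq2 called 0 of them. Cd37, a tetraspanin, stood at 30.3 ± 1.75 against 39.9 ± 3.50 CPM (log2 fold change -0.39, unadjusted p = 0.023, limma adjusted p = 0.125), and H2-Aa, an MHC class II chain, at 9.76 ± 2.11 against 9.32 ± 5.66 CPM.

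The other B-lineage genes were those of 4 lists, 59 genes in all: early lymphoid, B-lineage transcription factor, pre-B and B cell receptor signalling, and mature B cell genes. Plasma cell genes, of which limma called Igha, are given apart. Of the 59 genes 35 were tested. Limma called 2 (5.71%, against 10.1% of all genes tested) and edgeR and DESeq2 each called 3. An unadjusted limma p under 0.05 was found for 12 of the 35, against 25.3% of all genes tested. Their median log2 fold change was -0.07, against 0.0043 over all genes tested. Notch1, a receptor that directs lymphoid progenitors to the T lineage, rose in BcorΔE9-10 from 14.0 ± 1.96 to 23.9 ± 1.16 CPM (log2 fold change 0.78, SE 0.203, limma adjusted p = 0.0227). Spi1 (PU.1), a factor of myeloid and early B cells, fell from 217.3 ± 16.8 to 156.5 ± 10.9 CPM (log2 fold change -0.47, SE 0.114, limma adjusted p = 0.0154). Neither is specific to B cells. The Notch1 call was lost without BcorΔE9-10 library 3 (limma adjusted p = 0.0813) or BcorWT library 1 (0.185). The Spi1 call was lost without BcorWT library 1 (limma adjusted p = 0.116), with library totals alone (0.0881) and after GC correction (0.0527).

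Among 12 early lymphoid genes 7 were tested, and limma called Notch1 while edgeR and DESeq2 called Lck as well. Flt3, a receptor of early multipotent and lymphoid progenitors, had 35, 43 and 15 counts against 12 and 5 (log2 fold change 1.55, limma adjusted p = 0.219), and with a replicate block limma called it higher (adjusted p = 0.0234). Il7r, the receptor that B-cell precursors need for growth in mice, had 1, 3 and 0 counts in BcorΔE9-10 libraries 1 to 3 and 0 and 1 in BcorWT libraries 1 and 2. The recombinase genes Rag1 and Rag2, which cut receptor genes for rearrangement, had 4, 6 and 4 counts against 7 and 4, and 2, 4 and 3 against 1 and 0. All 3 were too low to test. Satb1, a chromatin organiser and one of the most abundant of the list, stood at 50.0 ± 4.52 against 52.7 ± 6.59 CPM (limma adjusted p = 0.776).

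Of 14 B-lineage transcription factors 10 were tested and Spi1 was the 1 call. Bcl11a, a factor needed for early B cells, had a log2 fold change of 0.52 (unadjusted p = 0.012) and was called higher with library totals alone (limma adjusted p = 0.0298). Ikzf1 (Ikaros), which opens the lymphoid programme and is also active in myeloid cells, stood at 125.8 ± 9.66 against 157.0 ± 10.2 CPM (log2 fold change -0.32, limma adjusted p = 0.103), and Irf8 at 76.8 ± 8.42 against 78.2 ± 6.64 CPM. Tcf3, whose E proteins act before Ebf1, had 15.8 ± 0.838 against 16.8 ± 3.48 CPM (log2 fold change -0.07, limma adjusted p = 0.872). Of 20 genes of pre-B and B cell receptor signalling 14 were tested and 0 called, while 6 had an unadjusted p under 0.05, against 25.3% of all genes tested. Of these 6, Inpp5d, Pik3cd, Ptpn6, Vav1 and Btk had negative and Fyn a positive fold change. The list had a median of -0.21 on the log2 scale, and its summed level was 1009 to 1051 CPM in BcorΔE9-10 and 1129 and 1239 CPM in BcorWT. The most abundant were Pik3cd, Prkcb and Vav1, signalling genes that myeloid cells share, and the adapter Blnk, which is needed below the pre-B cell receptor, had 8, 9 and 7 counts against 9 and 1.

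The immunoglobulin rows of the table held few counts beyond Ighm and Igkc. Of 362 variable and joining gene rows 5 had any count, with 1, 2 and 10 counts in all in BcorΔE9-10 and 15 and 0 in BcorWT, and the 20 diversity gene rows had 0. A 3′ tag reads the constant end of a spliced immunoglobulin transcript and not its variable segment. Of 10 other constant regions 7 had counts, and Igha, the heavy chain of IgA, held most of them, with 21, 3 and 36 in BcorΔE9-10 and 0 and 0 in BcorWT.

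Igha was the 1 gene called of the 3 tested among 11 plasma cell genes (limma adjusted p = 0.029), and it passed the filter on low counts through BcorΔE9-10 libraries alone. Its 60 counts in the BcorΔE9-10 group, 2.59 CPM, were at least 11.9-fold higher than 3 counts over the BcorWT group, but BcorΔE9-10 library 2 had no more than 3. The call was lost without BcorΔE9-10 library 1 (limma adjusted p = 0.0506) or 3 (0.0969) and without BcorWT library 1 (0.224) or 2 (0.150). Jchain, which joins IgA and IgM into polymers in plasma cells, had 10, 0 and 6 counts against 3 and 3, and Sdc1 (CD138) had 2, 3 and 8 against 9 and 7. The whole list summed to 143.1 to 170.3 CPM in BcorΔE9-10 and to 98.7 and 141.7 CPM in BcorWT, mostly from Xbp1, a secretory factor with many other sources. With library totals alone limma called Xbp1 higher (adjusted p = 0.0378). The part of plasma cells in the Igha and Ighm counts was not tested.

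The remaining lists gave the setting of these values. Of 6 plasmacytoid and 4 classical dendritic cell genes tested 0 were called, and 2 of the 6 plasmacytoid genes were positive (median -0.38 on the log2 scale). Of 10 neutrophil genes 6 fell, among them S100a8 (log2 fold change -0.61). Camp was positive (0.25) and was called higher with library totals alone (limma adjusted p = 0.00444) and with a replicate block (0.000832), and the replicate block also called Mmp8 (5.39e-06) and Retnlg (4.28e-05) lower. Kit rose and Csf2rb fell among 10 myeloid progenitor genes. Ctsg was called higher with library totals alone (limma adjusted p = 0.013) and with a replicate block (0.0138). Of 5 stem and multipotent progenitor genes tested Hoxa9 rose, and limma called Car1 of 5 erythroid genes tested. All 5 erythroid genes had positive fold changes and an unadjusted limma p under 0.05 (median log2 fold change 1.71), and edgeR called 4 of them. With a replicate block limma also called Hba-a1, Hba-a2, Hbb-bs and Hbb-bt (adjusted p from 0.00512 to 0.0409), and with library totals alone Hbb-bs (0.0491) and Hbb-bt (0.0486). Among 5 tested genes of the sort gate Kit rose and Ly6c2 and Ly6g fell. With library totals alone limma also called Itgam (CD11b) higher (log2 fold change 0.51, adjusted p = 0.0157). The calls of Car1, Ly6c2 and the neutrophil genes Mmp9 and S100a9 were lost without BcorWT library 1 (limma adjusted p = 0.178, 0.0650, 0.493 and 0.0529), and those of Car1, Ly6c2 and Mmp9 also without BcorΔE9-10 library 3 (0.0774, 0.0566 and 0.0695). Car1 was also lost without BcorΔE9-10 library 2 (limma adjusted p = 0.0706) or BcorWT library 2 (0.114), Ly6c2 without BcorΔE9-10 library 1 (0.0606) or BcorWT library 2 (0.0554) and Mmp9 without BcorΔE9-10 library 2 (0.0909). Without BcorWT library 1 the log2 fold change of Mmp9 was -0.17 in place of -0.71. Mmp9 was not called by DESeq2 (adjusted p = 0.189), Mmp9 and Ly6c2 were not called with library totals alone (limma adjusted p = 0.0591 and 0.0966), and Car1 was not called after GC correction (limma adjusted p = 0.0596).

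The genes whose library pattern was most like that of the summed B-lymphoid genes were Esrra, Cep295, Ighmbp2, Zfp74, Sema4d and Rundc1. Likeness was the root mean square difference of centred log2(CPM + 0.5) values over the 5 libraries, and it was 0.0669 to 0.0867 for these 6 of 9911 genes compared. Esrra, the closest, had 17.7, 23.6 and 26.9 CPM in BcorΔE9-10 and 26.5 and 15.4 CPM in BcorWT.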

How the data were processed

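RNA was sequenced from the ends of polyadenylated transcripts (QuantSeq 3′) in KL cells, and the authors deposited raw counts per gene, not normalised. Per the study's methods and processing notes, reads were trimmed with cutadapt, aligned to mm10 with HISAT2 and counted with featureCounts of Subread 1.5.0-p3; settings for strand and for reads with several alignments were not given in the sources used here. Groups came from the sample titles. The labels do not say whether each library is a separate mouse, so p-values measure the spread between these libraries. Chi-square values per gene between libraries of one group were 5.69 to 10.8, where sampling noise gives 1, so each was kept as a replicate. The labels name no batch.

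Genes were kept with filterByExpr (minimum count 10, minimum total 15; edgeR 4.0.16), scaled by TMM and tested with limma 3.58.1 on voom values in R 4.3.3, two-sided, with Benjamini-Hochberg adjustment over all 11766 genes. CPM are counts per 1000000 of the TMM-scaled total, given as mean ± SD. edgeR's quasi-likelihood test, DESeq2 1.42.0, other scalings and filters, a GC correction (lowess span 0.3 on the last 300 bases) and leaving out each library were alternatives. Shares have 95% Wilson intervals, and a count of 0 allows up to 3 counts. The fits were tested on simulated data.

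The 10 genes, the marker lists and the tests were chosen with earlier results of these data known. Genes named are these 10, called genes and the most abundant genes of each list, the 6 most like the sum, immunoglobulin rows, and markers chosen for their role after their values were seen (Cd74, Ms4a1, Fcer2a, Cr2, Cxcr5, Trbc1, Trbc2, Trac, Trdc, Cd247, Cd3g, Tcf3, Mmp8, Retnlg, Hbb-bt, Flt3, Lck, Bcl11a, Fyn, Inpp5d, Ptpn6, Btk, Il7r, Rag1, Rag2, Cd22, Blnk, Cd3e, Cd3d, Cd2, Jchain, Sdc1). Bcor, Top3b and Vpreb2 are named as checks. Single values of some listed genes are not reported here. Sequences are from RefSeq, and gene positions from the counts table.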

Additional observations from a re-analysis of the deposited data

How the results depend on the processing

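No B-lymphoid gene was called under any of the 13 alternatives, and the lowest adjusted p was 0.0777, for Dntt with library totals alone. Of 111 comparisons of single B-lymphoid genes across alternatives, 104 kept their direction and 7 changed it, all for Cd79b or Ighm, and the cause was not tested. Leaving out 1 library moved Cd79b between -0.45 and 0.24 and Ighm between -0.25 and 0.28 on the log2 scale. Ighm was -0.014 with DESeq2, -0.0029 with DESeq2 size factors and -0.12 with the replicate block. Over all genes the replicate block gave 1454 calls in place of 1189 and left 0 B-lymphoid genes called; same-numbered libraries deviated together only weakly (correlations 0.070 and 0.076 across genes), so they share a number and no known pairing. Leaving out 1 library gave 484 (without BcorWT library 1) to 1141 calls over all genes, 708 without BcorΔE9-10 library 3 and 789 without library 2, and 0 to 2 calls among the other B-lineage genes; these fits hold fewer samples. With edgeR, DESeq2, library totals alone or the replicate block 3 other B-lineage genes were called in place of 2; Lck was added with edgeR, DESeq2 and library totals, Bcl11a with library totals, where Spi1 was lost and all 3 were higher, and Flt3 with the block. With library totals alone 1210 of 1407 calls were higher in BcorΔE9-10 and all genes had a median of 0.149 on the log2 scale, against 708 of 1189 and 0.0043 with TMM. The log2 difference of the summed B-lymphoid levels was 0.25, 0.92 without Ighm and Igkc and 0.73 without Ighm, since Ighm holds most counts, and it ranged from -0.12 (without BcorWT library 2) to 0.62 when 1 library was left out. Depth limits these values, as 1 count is 0.117 to 0.163 CPM. Cd79a could not be tested with the filter.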
